A study of Mus musculus with 6 samples.

Results

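Abundant but very narrow clusters of polyadenylation sites were examined in V6.5 cells, an embryonic stem cell line of the mouse with a C57BL/6-129 background. A cluster is a set of cleavage positions on one strand, each at most 24 nt from the next. The narrow clusters are those with a mean level of 10 to 200 reads scaled to a library total of 1e+06 (counts per 1e+06, CPM) over 6 libraries and a width of 5 nt or less, and 45 of 931675 clusters outside chromosome M met both limits. Mean level and width chose them, so neither is a finding. A further 9381 clusters had the same range of level but were wider. They served as the comparison, weighted by level where medians or shares are said to be of like CPM.

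The study inhibited U1, the small nuclear ribonucleoprotein that pairs with 5′ splice sites and is known to keep cleavage and polyadenylation from occurring early in transcripts. There were 2 libraries from cells given an antisense morpholino oligonucleotide (AMO) that targets U1, 2 from cells given a scrambled AMO and 2 from cells with no treatment. All 6 came from polyadenylated RNA of the same line under the same standard culture, with the sequencing aimed at RNA 3′ ends. The U1 AMO libraries held 15752080 and 57925358 reads, the scrambled AMO libraries 26846406 and 62257923, and the untreated libraries 38569397 and 60473882 (replicates 1 and 2). A level of 10 CPM therefore stood for 157.5 reads in the shallowest library and 622.6 in the deepest. Read names showed that replicate 2 of both AMO groups shared one sequencing run, in separate lanes, and that replicate 1 of both shared another run and lane. The untreated libraries came from 2 further runs. Replicate number and run are one and the same term among the AMO libraries, so culture, library preparation and sequencing cannot be told apart in what follows. The labelled cell type was not checked against marker genes, and no cluster is given a gene name, because no annotation of the files' build (mm9) was used here. As in any bulk measurement, fewer cells with a transcript and less RNA per cell cannot be told apart.

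Messenger RNA 3′ ends are made by cleavage downstream of a hexamer, most often AATAAA in DNA letters, which the cleavage and polyadenylation factor CPSF binds, and a poly(A) tail is then added. Cleavage is usually imprecise: the cut falls at several neighbouring positions, so that an abundant 3′ end normally spreads over a zone. A stretch of A in the RNA itself can also prime reverse transcription from an oligo(dT) primer, which is a known property of 3′ end methods.

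The hexamer that the deposited files list for the strongest position of each cluster is the one piece of sequence held for it, and it is shown because it set several of the narrow clusters apart. Those found among the narrow clusters are given 5′ to 3′ on the cluster's strand, with capitals at the bases that differ from the canonical signal.
canonical signal: aataaa
all-A hexamer: aaAaaa
second commonest signal: aTtaaa
G at the third base: aaGaaa
G at the fourth base: aatGaa
C at the first base: Cataaa
G at the third and T at the last base: aaGaaT
G at the second base: aGtaaa
C at the first and T at the last base: CataaT
T at the first base: Tataaa
The canonical hexamer was listed for 24 of the 45, or 53.3%, against 64.8% of wider clusters of like CPM. The hexamer aTtaaa was listed for 5 (11.1% against 17.9%). The all-A hexamer was listed for 6 narrow clusters (13.3%), against 34 of 9381 wider ones (0.536% after weighting). The remaining 10 narrow clusters had one of the other 7 variants.

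The distance from the hexamer to the strongest position also differed. It was 11 nt or less at 16 narrow clusters (35.6%), against 1.81% of wider clusters of like CPM, and the listed range in the files is 6 to 40 nt. The labels and files do not say from which base of the hexamer it is counted. All 6 clusters with the all-A hexamer had distances of 7 or 8 nt. The median was 18 nt over the narrow clusters and 21 nt over the wider ones. A deposited whole number from 0 to 10, which neither labels nor files explain, was 8 to 10 at 14 narrow clusters (31.1% against 11.1%) and 0 to 2 at 0 of 45 (16.5% of wider clusters of like CPM). These are counts over clusters, which are not replicates, and carry no test.

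The narrow clusters were mostly single positions with a few stray reads. Their strongest position held a median of 99.4% of the level (lowest 49.9%, highest 100%), against 45.9% in wider clusters of like CPM. It held over 95% at 35 of 45, against 0.600% of wider clusters of like CPM. The width limit acts on this measure, so it is a description. In 39 of 45 the same position was the strongest in all 6 libraries. They lay on 20 chromosomes, 25 on the plus strand and 20 on the minus strand.

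Narrow clusters stood far from other 3′ ends. The nearest other cluster of any level on the same strand was at a median of 2455 nt, against 103 nt for wider clusters of like CPM. A same-strand cluster of at least 1 CPM lay within 10 kb of 5 of the 45 (11.1%), against 68.1%. For a cluster of at least 10 CPM on that strand the counts within 10 kb were 3 (6.67%) against 40.3%, and on the opposite strand 4 (8.89%) against 18.7%. The median gap to a same-strand cluster of at least 1 CPM was 92.5 kb against 1.40 kb. A neighbour within 24 nt would have been joined and made the cluster wider, so gaps up to that distance are set by the rule. Longer gaps need not be independent of it, because the rule takes stretches with no other position close by.

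At the limits of the rule, the narrow clusters closest above 10 CPM were chr6:66652128-66652131 (minus) and chr4:135538461-135538464 (plus), with means of 10.05 and 10.06 CPM. Closest below were chr1:187214640-187214643 (minus) at 9.95 CPM and chr2:139393282-139393282 (minus) at 9.76 CPM. At the upper end the highest member was at 89.5 CPM, and the one narrow cluster above 200 CPM, chrX:123199800-123199804 (minus), was at 627.3 CPM. Of clusters of 10 to 200 CPM, 10 were 5 nt wide and 12 were 6 nt wide. The most abundant at 5 nt were chr3:95057593-95057597 (minus, 45.5 CPM) and chr8:23534292-23534296 (plus, 29.7 CPM). At 6 nt they were chr16:81909190-81909195 (minus, 88.7 CPM) and chr7:25086890-25086895 (plus, 32.9 CPM).

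The first question was whether levels of narrow clusters moved between the runs of replicate 2 and replicate 1 more than those of wider clusters. A difference between the runs was called at 38 of 45: 17 were higher and 21 lower in the run of replicate 2 (edgeR quasi-likelihood test in the 4 AMO libraries with group and replicate number as terms, Benjamini-Hochberg adjusted p under 0.05). This test asks whether a cluster's own level differed between the runs, not whether it moved more than wider clusters. Over all 68692 clusters tested the same call was made for 24.8% (10.9% higher and 14% lower). Among wider clusters of 10 to 200 CPM it was made for 3831 of 9381 (40.8%), or 39.4% after weighting to like CPM. The median absolute log2 fold between runs was 1.91 over the narrow clusters, 0.35 over the wider ones and 0.55 over all clusters tested. With library totals in place of TMM factors the split was 14 higher and 21 lower among the narrow clusters, and 5389 higher and 11632 lower over all, against 7484 and 9583 with TMM. All 45 passed the filter on low counts. With 4 libraries and 3 coefficients, the fit borrows its estimate of spread largely from other clusters. The AMO groups share the same pair of runs, so the SE and p of the run term do not measure variation among other runs.

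The size of the swing was measured without a model as the absolute log2 ratio of CPM in replicate 2 to replicate 1, after adding 0.5 CPM. Its median was 1.85 in U1 AMO cells and 1.63 in scrambled AMO cells for the narrow clusters, against 0.34 and 0.36 for wider clusters of like CPM. As folds these are 3.61 and 3.09 against 1.26 and 1.29. Averaged over both AMO groups the medians were 1.77 and 0.35, and the difference of 1.42 had an SD of 0.176 over the groups (n = 2). Both groups come from the same pair of runs, so this SD is scatter between the AMO groups and not between pairs of runs. A swing of at least 1 in the same direction in both AMO groups was found at 28 of 45 (62.2%), against 6.05% of wider clusters of like CPM. No test over clusters was made. The AMO levels also enter the mean that chose the narrow and the wider clusters, so a cluster could qualify through the run where it was high. With level and width taken from the untreated libraries alone, the difference was 0.85.

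**Figure D1:**
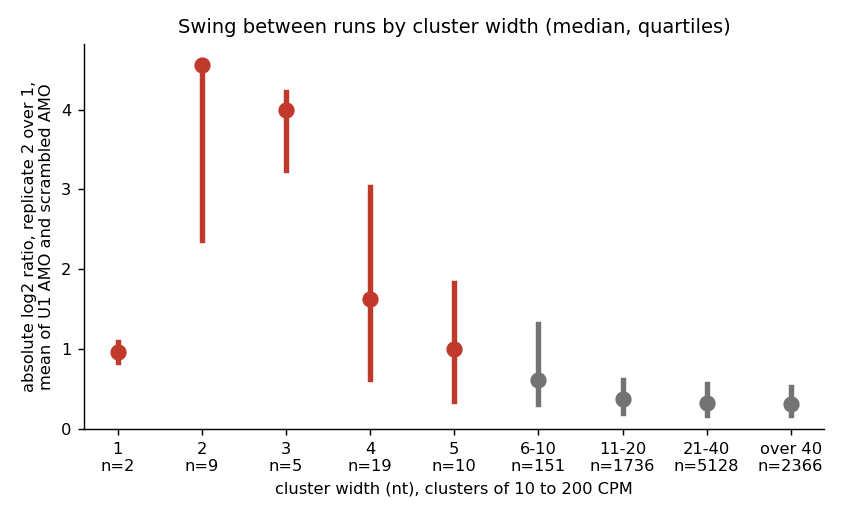
Absolute log2 ratio of CPM in replicate 2 over replicate 1, averaged over U1 AMO and scrambled AMO, for clusters of 10 to 200 CPM by width in nt. Points are medians and bars quartiles over clusters. Narrow clusters (5 nt or less, red) had medians from 0.96 to 4.55, and clusters over 10 nt (grey) from 0.31 to 0.38.

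The swing differed with width. Medians were 4.55 at 2 nt (n = 9), 3.99 at 3 nt (n = 5), 1.63 at 4 nt (n = 19) and 1.01 at 5 nt (n = 10). The 2 clusters of 1 nt had a median of 0.96. Just outside the limit, clusters of 6 nt had a median of 1.59 (n = 12), above that at 5 nt, and 75% of them were called for run, against 60% at 5 nt. Clusters of 6 to 10 nt together had a median of 0.62 (n = 151), those of 11 to 20 nt 0.38 and those of 21 to 40 nt 0.33. The share called for run was 62.9% at 6 to 10 nt, 44.99% at 11 to 20 nt, 40.9% at 21 to 40 nt and 36.3% above 40 nt. When width was instead taken as the span of the central 90% of pooled reads, 2594 clusters were within 5 nt, and their median swing was 0.36 against 0.33 in the others of like CPM. The 47 wider clusters with over 95% of their level at one position had a median swing of 1.87, and 14 of them were called higher and 28 lower in the run of replicate 2. The 35 narrow clusters with that share had a median swing of 1.77, with 14 called higher and 15 lower.

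Libraries of one run were closer to each other than those of different runs in narrow clusters, with 1 exception: U1 AMO replicate 2 and untreated replicate 1 differed by 0.52, less than the 0.60 of one same-run pair. Between U1 AMO and scrambled AMO of the same run the median absolute log2 ratio of narrow clusters was 0.60 for replicate 2 and 0.38 for replicate 1, against 0.20 and 0.29 for wider clusters of like CPM. Across the 13 pairs of libraries from different runs it spanned 0.52 to 2.43, against 0.34 to 0.75. The narrow clusters had the larger median in all 15 pairs, but by only 0.00433 between U1 AMO replicate 2 and untreated replicate 1. The untreated libraries, from yet other runs, differed by a median of 1.28 in narrow clusters against 0.54. Pairs that share a library are not independent.

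**Figure D2:**
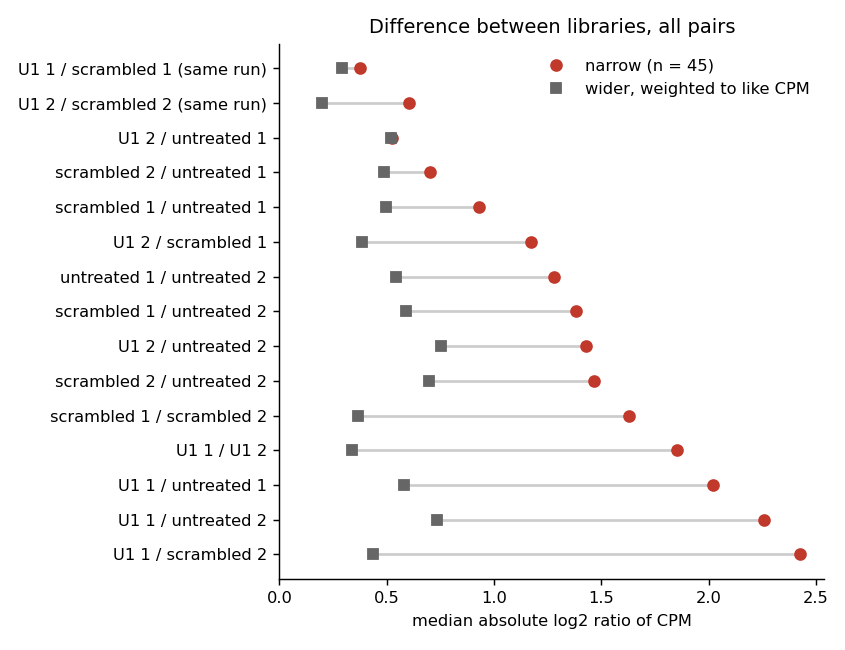
Median absolute log2 ratio of CPM for each of the 15 pairs of libraries, in 45 narrow clusters (red circles) and in wider clusters weighted to like CPM (grey squares). The 2 pairs from one run stand at 0.38 and 0.60 in narrow clusters, and pairs from different runs reach 2.43.

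Narrow clusters of lower level, which the rule does not take in, gave similar values. At 3 to 10 CPM, 163 narrow clusters had a median swing of 1.88 against 0.39 in 7416 wider ones, and 80.4% against 34.8% were called for run. At 1 to 3 CPM, 576 had a median swing of 1.52 against 0.39, and 74.3% against 25.04% of those tested were called. When level and width were taken from the untreated libraries alone, 49 clusters qualified. Their level and width used untreated reads only, but inside clusters joined from the positions of all 6 libraries. In the AMO libraries 38 of the 49 (77.6%) were called for run, against 40.1% of 9444 wider clusters. Their median swing was 1.19 against 0.35. Of the 49, 24 were among the 45, and the other 25 had a median swing of 1.12, with 18 called.

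**Figure D3:**
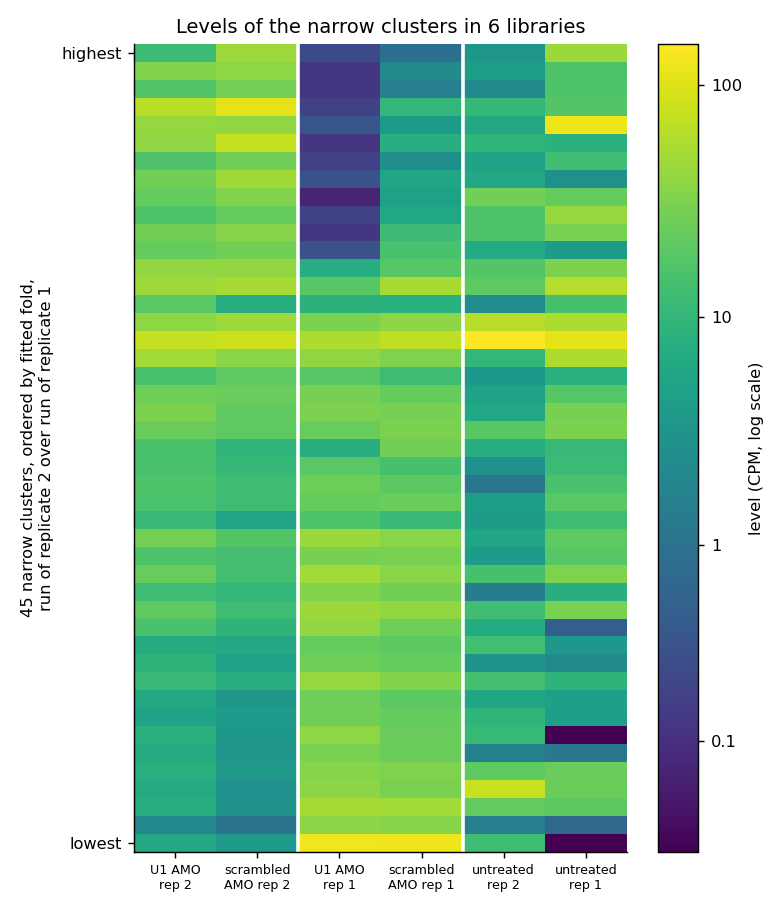
Level in CPM (colour, log scale) of the 45 narrow clusters in each library, with clusters ordered from the highest to the lowest fold of the run of replicate 2 over that of replicate 1. White lines part the run of replicate 2, the run of replicate 1 and the untreated libraries. In the top 12 clusters U1 AMO replicate 1 is under 0.5 CPM, and 0 reads are drawn in the darkest colour.

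The clusters that were higher in the run of replicate 2 were led by 12 that were nearly absent from one library. In U1 AMO replicate 1 these 12 had 1 to 6 reads each (0.0635 to 0.381 CPM), a limit of 0.5 CPM chosen after the values were seen. In the run of replicate 2 their range was 11.9 to 65.0 CPM in U1 AMO cells and 22.4 to 106.8 in scrambled AMO cells. In scrambled AMO replicate 1, from the same run and lane as the near-empty library, they had 0.894 to 15.0 CPM. So the scrambled AMO was lower in that run as well, without overlap between the ranges of its 2 libraries. Among wider clusters of 10 to 200 CPM only 4 of 9381 were under 0.5 CPM in U1 AMO replicate 1, and these were 6 or 7 nt wide. At the depth of that library 10 CPM stands for 157.5 reads. With every library thinned to this depth, the lowest of the 6, 36 of the 45 narrow clusters were called for run. Of these, 15 were higher and 21 lower, and 37.1% of wider clusters were called (edgeR). Whether depth has a part in the loss at these 12 was not tested.

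The largest fold was at chr2:138414619-138414620 (minus), 56 nt from its nearest neighbour, with the hexamer CataaT. In the run of replicate 2 the U1 AMO library had 11.9 CPM and the scrambled AMO library 46.3, against 0.254 and 0.894 CPM in the run of replicate 1. Untreated cells had 44.4 and 3.39 CPM. Between the runs the log2 fold was 5.79 ± 0.26 (SE), with an adjusted p of 8.80e-18 in edgeR. Both AMO groups were high in one run and low in the other, and the untreated libraries also stood far apart.

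At chr9:98440029-98440030 (minus, aaGaaT) the run of replicate 2 had 32.6 and 37.9 CPM with the U1 and the scrambled AMO, against 0.127 and 2.27 in the run of replicate 1. The cluster at chr18:9335073-9335076 (minus) had 17.3 and 28.2 CPM against 0.127 and 1.56, in the same order. These 2 had log2 folds of 4.98 ± 0.31 and 4.86 ± 0.29 (SE; edgeR adjusted p 3.15e-14 and 1.13e-14). Untreated cells had 16.05 and 4.38 CPM at the first and 16.5 and 2.17 at the second, so replicate 1 was the higher of the untreated libraries at both.

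The cluster at chr4:40290052-40290053 (minus, aataaa at 18 nt) was among the most abundant, with a mean of 35.0 CPM. In the run of replicate 2 the U1 AMO library had 65.0 CPM and the scrambled AMO library 106.8, against 0.190 (3 reads) and 10.1 in that of replicate 1. The untreated libraries, at 17.7 and 10.3 CPM, stood between these, and the log2 fold between runs was 4.61 ± 0.36 (SE, edgeR adjusted p 7.24e-12). The cluster at chr4:68759744-68759745 (plus, aaGaaa at 33 nt) had 40.1 and 73.9 CPM against 0.127 and 7.71. The cluster at chr16:49268864-49268866 (plus, Cataaa at 38 nt) had 41.7 and 39.7 CPM against 0.381 and 3.84, and the untreated libraries had 120.6 and 6.30. It ranked sixth in mean level mainly through untreated replicate 1.

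The other 5 clusters that were higher in the run of replicate 2 were present in every library, and their log2 folds were 0.46 to 1.91. They are named after their values were seen, save those given elsewhere by rule. At chr3:39027415-39027418 (minus) the levels were 40.98 and 40.77 CPM with the U1 and the scrambled AMO in the run of replicate 2, against 7.17 and 18.6 in that of replicate 1. Both AMO groups were higher in the run of replicate 2 there. At chr3:139153411-139153414 (plus) U1 AMO replicate 1 stood apart at 18.8 CPM, with 46.1, 51.0 and 51.9 CPM in the other AMO libraries and 61.8 and 20.7 in untreated cells. The other three were chr16:15609838-15609841 and chr3:95057593-95057597, described below, and chr6:66652128-66652131.

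**Figure D4:**
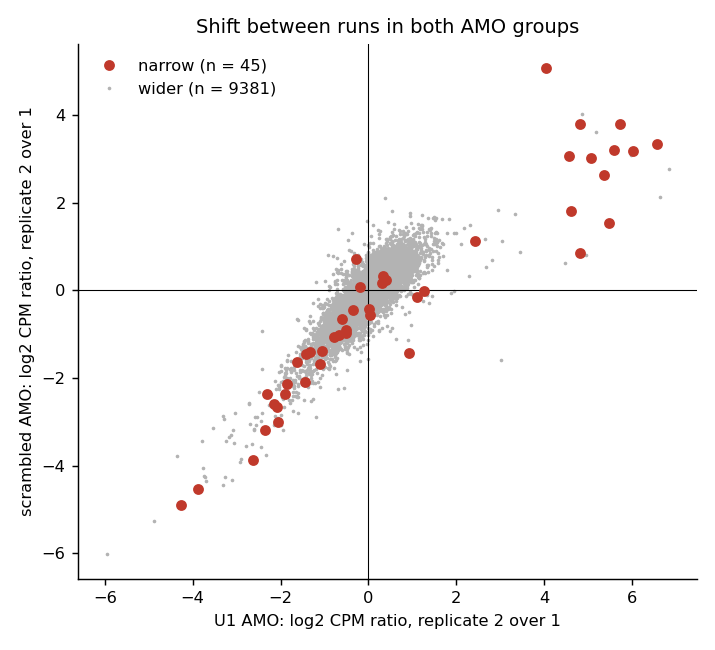
Log2 ratio of CPM in replicate 2 over replicate 1 for U1 AMO cells (x axis) and scrambled AMO cells (y axis), in 45 narrow clusters (red) and 9381 wider clusters (grey). The narrow clusters reach both ends of the range. On both axes 38 of the 45 (84.4%) lie on the same side of 0, against 80.4% of wider clusters of like CPM.

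The 21 clusters that were lower in the run of replicate 2 formed a group with short hexamer distances. Of these, 15 had a distance of 11 nt or less, and 6 had the all-A hexamer. Conversely, of the 16 narrow clusters at 11 nt or less, 15 were lower in the run of replicate 2 and 1 was higher. All 6 with the all-A hexamer were lower. Wider clusters with a distance of 11 nt or less were lower in 38.6% of cases and higher in 8.57% (n = 140), and those with the all-A hexamer in 38.2% and 17.6% (n = 34). At 18 to 24 nt the wider clusters were lower in 15.0% and higher in 25.8% (n = 6411). Over the 21, the log2 folds ran from -4.57 to -0.50, with a median of -1.71.

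The strongest fall was at chr19:37008277-37008278 (minus), an all-A cluster at 7 nt. In the run of replicate 2 the U1 AMO library held 6.20 CPM and the scrambled AMO library 3.61, against 127.8 and 122.4 CPM in the run of replicate 1. Untreated replicate 1 had 0 reads of 38569397, which allows a level of up to 0.0778 CPM (counting error only), and untreated replicate 2 had 12.5 CPM. The AMO libraries of a run lay close together and the runs did not overlap, with a log2 fold of -4.57 ± 0.19 (SE, edgeR adjusted p 8.55e-19). The third highest mean level of the narrow clusters, 45.4 CPM, came almost wholly from 2 libraries.

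A similar pattern was found at chr5:19161463-19161465 (plus, all-A at 7 nt), with 2.04 and 1.04 CPM in the run of replicate 2 for the U1 and the scrambled AMO, against 37.1 and 35.5 in that of replicate 1. Untreated cells had 0.70004 and 1.52 CPM. Its log2 fold was -4.47 ± 0.22 (SE, edgeR adjusted p 6.30e-17). At chr19:61264641-61264644 (plus, all-A at 8 nt) the levels were 6.77 and 3.32 CPM against 30.2 and 23.7, and 1.19 and 1.64 in untreated cells. In these 2 clusters only the libraries of replicate 1 of the AMO groups passed 10 CPM.

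Clusters with the canonical signal at 11 nt followed the same order of runs. At chr1:89232651-89232653 (minus) the levels were 7.80 and 2.88 CPM with the U1 and the scrambled AMO in the run of replicate 2, against 51.1 and 48.6 in that of replicate 1. Untreated cells had 19.7 and 21.9 CPM, between the runs. The cluster at chr9:98978582-98978583 (plus) had 7.91 and 3.60 CPM against 34.7 and 32.3, with 23.96 and 20.26 in untreated cells. At chr8:23534292-23534296 (plus) the levels were 6.77 and 2.81 CPM against 36.9 and 29.5, and the highest library was untreated replicate 2, at 77.6 CPM. Log2 folds between runs at these 3 were -3.23 ± 0.22, -2.50 ± 0.20 and -2.76 ± 0.20 (SE; edgeR adjusted p 2.50e-13, 1.92e-11 and 1.51e-12).

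**Figure D5:**
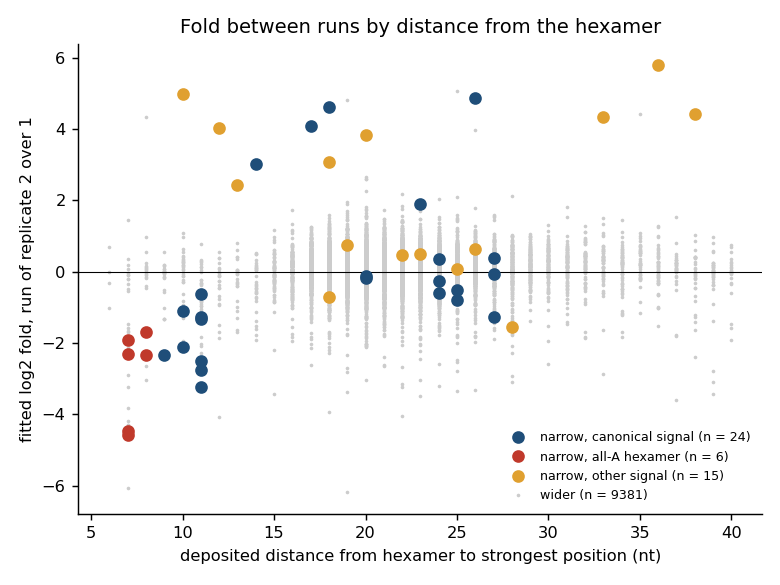
Fitted log2 fold of the run of replicate 2 over that of replicate 1 against the deposited distance from the hexamer to the strongest position in nt, for 45 narrow clusters (coloured by signal) and 9381 wider clusters (grey). Of 16 narrow clusters at 11 nt or less, 15 were lower in the run of replicate 2, and the 3 beyond 30 nt were higher.

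The 7 clusters not called for run had distances of 20 to 27 nt, 6 of them with the canonical signal and 1 with aTtaaa. Their log2 folds lay between -0.27 and 0.37, with adjusted p of 0.0734 to 0.816 in edgeR. A call that was not made does not show that their levels were equal. The one of highest level, chr3:64037482-64037485 (minus), had 49.1 and 35.6 CPM with the U1 and the scrambled AMO in the run of replicate 2, against 39.9 and 31.8 in that of replicate 1. Its untreated libraries had 56.31 and 10.004 CPM, so the spread there was wider than among the AMO libraries. In all 7, untreated replicate 2 was below untreated replicate 1.

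The 2 most abundant narrow clusters were among the steadiest. At chr16:15609838-15609841 (plus, Tataaa at 22 nt) the levels were 73.4 and 82.2 CPM with the U1 and the scrambled AMO in the run of replicate 2, against 56.0 and 69.7 in that of replicate 1, and 109.3 and 146.7 in untreated cells. It was the one narrow cluster with a mean of at least 50 CPM, and its log2 fold between runs was 0.46 ± 0.15 (SE, edgeR adjusted p 0.0209). At chr3:95057593-95057597 (minus, aTtaaa at 23 nt) they were 39.0 and 47.0 CPM against 30.9 and 37.1, and 56.4 and 62.8 in untreated cells. At both, the U1 AMO was below the scrambled AMO in each run, and both AMO groups were below the untreated libraries. For U1 AMO against untreated the log2 folds were -1.01 ± 0.33 and -0.80 ± 0.33 (SE), with adjusted p of 0.122 and 0.198 in edgeR, so neither passed.

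The comparison of the U1 AMO with the scrambled AMO asked whether narrow clusters respond to U1 inhibition. No narrow cluster was called when groups alone were fitted to the 6 libraries (edgeR, with 0 of 45 at an unadjusted p under 0.05 and 0 by DESeq2, which called 4.19% of all clusters it tested). Over all 79917 clusters 0.667% were called, every one higher with the U1 AMO. The median log2 fold was 0.08 over the narrow clusters, -0.17 over wider ones and -0.02 over all tested. Groups overlapped in most cases: both U1 AMO libraries were above both scrambled AMO libraries at 6 of 45, and below at 1, together 15.6% against 33.8% of wider clusters. Of the 9381 wider clusters 731 were above and 2441 below, and no share over all clusters was taken. This count ignores the pairing by run, and a large swing between runs makes the groups overlap whatever their order within a run. The order within runs is given further on. The largest differences in either direction were 0.85 ± 0.84 at chr6:66652128-66652131 (minus) and -1.93 ± 1.997 at chr2:138414619-138414620 (SE, adjusted p 1 for both). A call that was not made does not show that levels were equal. On simulated data, this comparison over 6 libraries recovered 0% of 50 clusters changed 2-fold. It recovered 4% at 4-fold, 92% at 16-fold and 100% at 64-fold. Changes of 2-fold or 4-fold could therefore have been missed. No recovery rate was taken for narrow clusters alone. In this comparison the SE of a narrow cluster's log2 fold reached 2.12 (chr19:37008277-37008278). Against untreated cells, a log2 fold of 4.01 ± 1.72 (SE) at chr5:19161463-19161465 was not called (edgeR adjusted p 0.217). Larger changes in narrow clusters could thus have been missed as well.

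When the 4 AMO libraries were fitted with replicate number beside group, 23 of the 45 (51.1%) were called, 11 higher and 12 lower with the U1 AMO, where 15.7% of all 68692 clusters were called (13.4% higher, 2.34% lower). Of wider clusters 15.0% were called. These calls fell along the same split as the run effect. Of the 21 clusters lower in the run of replicate 2, 10 were called higher with the U1 AMO and 0 lower. Of the 17 that were higher in that run, 12 were called lower with the U1 AMO and 1 higher, and 10 of those 12 were among the near-empty clusters of U1 AMO replicate 1. Without those 12 near-empty clusters, 11 of 33 were called higher and 2 lower. The fit assumes the same fold in both runs. Among the near-empty clusters only chr2:138414619-138414620 came close to that. There the U1 AMO had 0.257 of the scrambled AMO level in the run of replicate 2 and 0.284 in that of replicate 1. At the other near-empty clusters this fraction was far smaller in the run of replicate 1 than in that of replicate 2.

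Values within each run follow, first for a near-empty cluster and then for clusters present in every AMO library. At chr16:11262290-11262293 (plus, aatGaa) the U1 AMO had 27.0 CPM against 48.6 with the scrambled AMO in the run of replicate 2, and 0.317 against 5.59 in that of replicate 1. Its log2 fold was -1.52 ± 0.28 (SE, edgeR adjusted p 7.13e-05 with replicate number as a term). At chr15:100239417-100239418 (plus, aataaa at 9 nt) the U1 AMO had 8.29 CPM against 3.502 in the run of replicate 2, and 38.2 against 23.7 in that of replicate 1. The log2 fold there was 0.93 ± 0.18 (SE, edgeR adjusted p 0.000141), and untreated cells had 0 reads and 10.5 CPM. At chr4:135538461-135538464 (plus, aataaa at 11 nt) the U1 AMO had 11.3 CPM against 5.32, and 16.3 against 10.9. The U1 AMO was above the scrambled AMO in the run of replicate 2 in all 21 clusters that were lower in that run, and in both runs in 19 of them. Among the 17 that were higher in that run, the U1 AMO was below the scrambled AMO in both runs at 14 and above in both at 1. Among the 7 not called for run it was above in both at 4 and below in both at 0. No share of this order within runs was taken over wider clusters or over all clusters. The sets of 21, 17 and 7 were chosen by calls on the same 4 AMO libraries. These counts, and the split of calls given above, are therefore a description.

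Taken as a sum, the 45 clusters held a similar share of reads in the 4 AMO libraries, while which clusters made it up differed by run. The share of reads outside chromosome M was 0.112% and 0.0990% in U1 AMO cells (replicates 1 and 2), 0.113% and 0.106% in scrambled AMO cells and 0.103% and 0.0665% without treatment. The U1 AMO libraries averaged 0.106% ± 0.00930 and the scrambled AMO libraries 0.109% ± 0.00488 (SD, n = 2; two-sided exact permutation p = 0.667, where 0.333 is the smallest this design allows). As a ratio, U1 AMO over scrambled AMO came to 0.935 in the run of replicate 2 and 0.994 in that of replicate 1. The 17 clusters that were higher in the run of replicate 2 took 0.0566% and 0.0761% there, with the U1 and the scrambled AMO, against 0.0127% and 0.0262% in the run of replicate 1. The 21 that were lower took 0.0248% and 0.0155% against 0.0823% and 0.0695%. The last 2 sets were chosen by these differences, so their shares are a description.

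Against untreated cells no narrow cluster passed the test either. For the U1 AMO there were 0 calls among the 45 in edgeR (7 at an unadjusted p under 0.05), where 4.89% of all clusters were called (4.38% higher and 0.506% lower). DESeq2 called 3 of the 45 (6.67%), below its 12.5% of all clusters. The highest log2 folds were 4.01 ± 1.72 at chr5:19161463-19161465, 3.60 ± 1.01 at chr19:61264641-61264644 and 3.34 ± 2.33 at chr19:37008277-37008278 (SE; adjusted p 0.217, 0.0834 and 0.446). All 3 carry the all-A hexamer, and their AMO levels came mostly from the run of replicate 1. The lowest were -1.97 ± 2.001 at chr2:138414619-138414620, -1.84 ± 1.48 at chr14:81299853-81299856 (plus) and -1.61 ± 1.95 at chr16:49268864-49268866 (SE; adjusted p 0.617, 0.512 and 0.684). At the chr14 cluster the U1 AMO libraries had 0.190 and 16.4 CPM and the untreated ones 44.2 and 16.5 (replicates 1 and 2). Without untreated replicate 1, 10 narrow clusters (22.2%) were called higher with the U1 AMO in edgeR, where 6.99% of all clusters and 4.91% of wider ones were.

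For the scrambled AMO against untreated cells there were 0 calls among the 45 in edgeR (3 at an unadjusted p under 0.05) and 0 among all 79917 clusters, or 0%. DESeq2 called 1 of the 45 (2.22%), below its 3.7% of all clusters. The same 3 all-A clusters had the highest log2 folds, 3.95 ± 1.72, 3.30 ± 2.32 and 3.18 ± 0.99 (SE; adjusted p 0.392 for chr5:19161463-19161465, 0.592 for chr19:37008277-37008278 and 0.288 for chr19:61264641-61264644). The lowest were -1.71 ± 1.12 at chr8:23534292-23534296, -1.58 ± 1.95 at chr16:49268864-49268866 and -1.12 ± 1.45 at chr14:81299853-81299856 (adjusted p 0.563, 0.786 and 0.7998). These comparisons share their untreated libraries, and the lack of treatment cannot be told apart from the runs of those libraries. Leaving out untreated replicate 1 keeps 1 untreated library, where the narrow clusters held their lowest share of reads (0.0665%). Their median log2 fold was then 1.39 for the U1 AMO and 1.80 for the scrambled AMO, against -0.17 and 0.04 in wider clusters. The rise was thus not particular to the U1 AMO.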

How the data were processed

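The authors deposited, per library, whole-number read counts at stranded cleavage positions, not normalized, each with a signal hexamer, a distance to it in nt and a score from 0 to 10. The submitters' processing notes name cutadapt, Bowtie and build mm9. Versions and the filter behind these positions are not given in the sources used. No molecular identifiers are described, so PCR copies are counted as reads.

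Positions from 6 libraries (2333467 distinct positions, without chromosome M) were joined into clusters. CPM are reads divided by each library's total and multiplied by 1e+06. Tests used edgeR 4.0.16 in R 4.3.3 (quasi-likelihood, TMM, filterByExpr, Benjamini-Hochberg adjusted p under 0.05) over all clusters. DESeq2 1.42.0 was an alternative. SE is the log2 fold divided by the root of F. Wider clusters were weighted to the narrow clusters' spread over 10 bins of log2 CPM. The scripts were tested on simulated data.

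Replicate numbers are shared between groups. The deviations of U1 AMO and scrambled AMO replicates correlated at r = 0.839 over 10293 clusters of at least 10 CPM, and read names show a shared run. With untreated cells r was -0.315 for the U1 AMO and -0.424 for the scrambled AMO.

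Clusters named in the text were the 8 of highest mean CPM, the 6 highest and 6 lowest called folds between runs, the steadiest of at least 50 CPM, the extremes of each group comparison (3 each way, as none was called) and those nearest the limits. The members, the rule and the lists were chosen with earlier results of these data known. Other values came from Python 3.11.15 with numpy 2.4.6, pandas 2.3.3 and scipy 1.17.1.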

Additional observations from a re-analysis of the deposited data

Results flagged for a closer look

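In 7 of the 45 narrow clusters the level moved one way between replicate 2 and replicate 1 in U1 AMO cells and the other way in scrambled AMO cells. The direction was the same at 38 of 45 (84.4%), against 80.4% of wider clusters of like CPM, so opposite directions were not particular to narrow clusters. With 1 ratio in each group the difference between the AMO groups was not tested. The log2 ratio of replicate 2 to replicate 1 in U1 AMO cells minus that in scrambled AMO cells was 2.35 at chr5:26539163-26539167 (minus), 1.30 at chr3:139153411-139153414 (plus) and 1.24 at chr6:66652128-66652131 (minus). It was 0.60 at chr11:94604326-94604330 (plus) and 0.43 at chr9:5440763-5440766 (minus). It was -0.28 at chr13:66143264-66143268 (plus) and -0.99 at chr9:77167482-77167485 (plus). Some single ratios were so small that their direction means little. With the U1 AMO these were 0.01 at chr9:5440763-5440766 and 0.04 at chr11:94604326-94604330. With the scrambled AMO they were -0.03 at chr3:139153411-139153414 and 0.08 at chr13:66143264-66143268.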

How the results depend on the processing

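The count of narrow clusters called for run, 38, was 29 to 39 under 5 alternatives, with 29 by DESeq2, which called 9.14% of all clusters and 26.9% of wider ones. Leaving out a replicate leaves that fit no residual degree of freedom. The difference in median swing, 1.42, was 1.25 to 1.54 under 11 alternatives, among them 1.51 in the U1 AMO pair alone and 1.26 in the scrambled AMO pair alone, which is what leaving out a library of the other group gives with the clusters unchanged. It was 0.62 with a width limit of 1 nt, 3.28 with 3 nt and 0.39 with 10 nt, and 0.0361 with width as the span of the central 90% of reads. It was 0.86 with the hexamers aataaa and aTtaaa alone, 1.64 with at least 2 positions and 0.74 in the untreated pair. Alternatives chosen after seeing the data gave 0.85 with clusters chosen on the untreated libraries, 0.86 without clusters under 0.5 CPM in U1 AMO replicate 1, 0.83 with distances over 11 nt and 1.21 without neighbours of at least 1 CPM within 10 kb. For these values the cause was not tested.

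Replicate number as a block left 0 calls in each group comparison over 6 libraries, and gave 23 for U1 AMO against scrambled AMO in the 4 AMO libraries (12 after thinning to equal depth, where 13.1% of all clusters and 8.54% of wider ones were called). Crossed pairing, chosen after seeing the data, gave 5 for U1 AMO against untreated (11.1%, against 6.44% of all and 5.69% of wider clusters) and 0 for scrambled AMO against untreated.

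Without the filter on low counts, calls were 1 for U1 AMO against scrambled AMO, 9 for U1 AMO against untreated and 9 for scrambled AMO against untreated. These are 2.22%, 20% and 20% of the narrow clusters, against 0.831%, 4.94% and 1.63% of wider ones and 0.313%, 0.768% and 0.137% of all. DESeq2 called 0, 3 and 1 in the same order (4.19%, 12.5% and 3.70% of all). With 1 library left out, U1 AMO against untreated gave 0 to 10 calls (untreated replicate 1 left out gave 10, U1 AMO replicate 2 left out gave 1, where 1.30% of all clusters were called), and the other 2 comparisons gave 0. The share of reads with the U1 AMO minus that with the scrambled AMO, -0.00375 percentage points, was -0.0103 to 0.00283 with 1 library left out, and turned positive without U1 AMO replicate 2.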

Other observations

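Among narrow clusters with no same-strand cluster of at least 1 CPM within 10 kb the median swing was 1.60 (n = 40), against 0.375 in 2944 wider clusters with none.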
